A study of Homo sapiens with 7 samples.

Results

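The genes described here are 10 components of the NODAL pathway: the ligands NODAL and GDF3, the co-receptor TDGF1, the receptor ACVR2B, the signal transducers SMAD2 and SMAD3, their nuclear partner FOXH1, and the inhibitors LEFTY1, LEFTY2 and CER1. They were taken by gene symbol from the 22670 genes listed in each library, and each symbol had 1 entry. RNA was sequenced from SEES-3 cells, an established human embryonic stem cell (hESC) line kept under feeder-free conditions in StemFit medium. The cells carried the reverse Tet transactivator and a doxycycline (Dox)-inducible piggyBac construct for JMJD3c, the HA-tagged catalytic domain of the histone H3K27 demethylase JMJD3 (gene KDM6B) with an added nuclear localization signal. JMJD3c-hESCs were sampled before Dox (Day 0) and on Days 1, 2, 3 and 4 of Dox at 1 µg/ml. JMJD3c mut-hESCs, whose construct carries a point mutation that removes catalytic activity, were sampled untreated and at Day 4 of the same Dox dose. Both constructs were introduced into the same parental line with the transactivator, and stable clones were obtained by puromycin selection, so the untreated cells carry the transactivator and the construct too. How many clones lie behind each library is not given in the sources used here.

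Each condition had 1 library, so the differences below could not be checked against replicates and carry no p-value. The values are FPKM, fragments scaled to transcript length and to the mapped reads of the library, with the 95% interval that Cufflinks gives for the estimate in 1 library. That interval does not hold the variation between cultures. A gene was called higher when its FPKM ratio was above 2 with more than 4 FPKM in the compared library, and lower when the ratio was below 0.5 with more than 4 FPKM in the reference. A second description was whether the 2 Cufflinks intervals were apart. Estimated depth was 3530000 reads at Day 0, the shallowest library, and up to 7280000 in the untreated mutant line. KDM6B, the gene from which the construct was made, measured 3.45 FPKM at Day 0, between 158 and 282 FPKM on Days 1 to 4, 2.40 FPKM in mutant cells without Dox and 454 FPKM in mutant cells with Dox. Its level was thus high in the Dox-treated libraries of both lines, and reads of the construct and of the endogenous gene cannot be told apart in it. All 8 hESC markers in the fixed list were above 0 in every library, with summed levels from 1816 FPKM at Day 4 to 2616 FPKM at Day 0. In these bulk libraries, fewer cells with a transcript and less transcript per cell cannot be told apart.

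NODAL and GDF3 are secreted ligands of the TGFβ family that signal through activin receptors such as ACVR2B with the help of the membrane-anchored co-receptor TDGF1 (also called Cripto). The activated receptors phosphorylate SMAD2 and SMAD3, which enter the nucleus with SMAD4 and act at target genes with DNA-binding partners such as FOXH1. Among the best-known targets are LEFTY1, LEFTY2 and CER1, whose secreted products block the ligand or its access to the receptor, so that the pathway restrains itself. In hESCs this pathway helps to maintain pluripotency, and at higher activity it is known to drive cells toward mesendoderm.

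The 3 inhibitor genes were the members called more abundant after 4 days of active JMJD3c, while the ligands, the receptors, the transducers and FOXH1 were not called in either direction. At Day 4, LEFTY1, LEFTY2 and CER1 were called higher than at Day 0 and none of the 10 genes was called lower. Over all 10247 genes above 4 FPKM in either library, 5.87% were called higher and 7.56% lower. In the mutant line, no member was called higher with Dox and 1, GDF3, was called lower, where the shares over all genes were 1.24% and 1.53%.

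**Figure D1:**
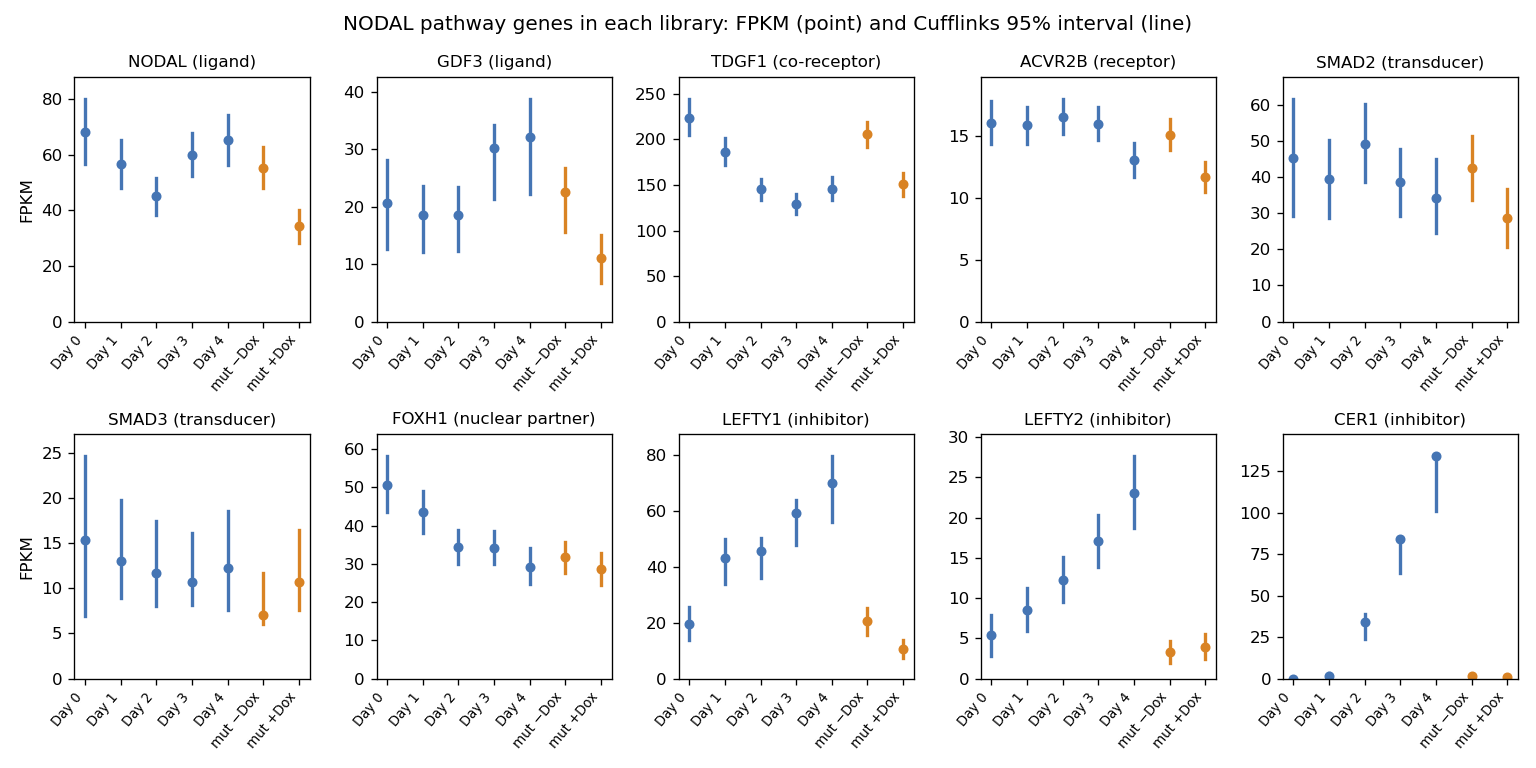
FPKM of the 10 genes (vertical axis, from 0, with a separate scale per gene) in the 5 JMJD3c libraries (blue) and the 2 mutant libraries (orange). Points are the deposited FPKM and lines the Cufflinks 95% intervals of single libraries, and the inhibitors in the last 3 panels reach their highest values at Day 4: 70.0 FPKM for LEFTY1, 23.0 for LEFTY2 and 134 for CER1.

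CER1 (hg19, chromosome 9, 14719722 to 14722715) encodes Cerberus, a secreted protein that binds NODAL and other ligands and is made by the anterior endoderm of the early embryo. From Day 0 to Day 4 its successive values were 0, 1.85, 34.0, 84.1 and 134 FPKM, and mutant cells had 1.62 FPKM without Dox and 0.924 with Dox. The 3 latest JMJD3c libraries were each above the one before, with intervals of 24.0 to 38.8, 63.4 to 84.4 and 101 to 132 FPKM that did not overlap, and all stood above the other 4 libraries. The Day 4 value lies just above its own interval. At the depth of the Day 0 library, 3 reads would have given 0.823 FPKM, so a level below that could not be told from 0, and no ratio to Day 0 is given. Against the untreated mutant line, CER1 at Day 4 was 82.7 times as high, with a range of 37.6 to 294 when the interval bounds are divided by each other. The 2 mutant values had overlapping intervals.

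LEFTY1 and LEFTY2 are neighbouring genes on chromosome 1 (hg19, 226073982 to 226076846 and 226124298 to 226129189) whose products are secreted antagonists that lack the ability to signal. LEFTY1 measured 19.7, 43.3, 45.5, 59.2 and 70.0 FPKM on Days 0, 1, 2, 3 and 4, while mutant cells had 20.7 FPKM without Dox and 10.6 with Dox. It was the only member called higher at Day 1, with a ratio of 2.20 (bounds 1.33 to 3.62), when 3.48% of all genes tested were called higher and 3.27% lower. At Day 4 the ratio to Day 0 was 3.55 (bounds 2.19 to 5.75) and the ratio to the untreated mutant line was 3.38 (bounds 2.23 to 5.05). All 4 Dox-treated JMJD3c libraries were above the other 3, with intervals that did not overlap those of the other 3, and the untreated libraries of the 2 lines lay within each other's intervals.

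LEFTY2 was less abundant, with 5.38, 8.54, 12.3, 17.1 and 23.0 FPKM from Day 0 to Day 4, and 3.27 and 3.96 FPKM in mutant cells without and with Dox. Its Day 1 interval overlapped that of Day 0, and it was called higher from Day 2 on. Its ratios to Day 0 on Days 2, 3 and 4 were 2.28, 3.19 and 4.28 (bounds of the last, 2.36 to 9.70). Against the untreated mutant line the Day 4 ratio was 7.04 (bounds 4.05 to 14.0). LEFTY1 was the more abundant of the pair in all 7 libraries on this per-length scale, between 2.67 and 6.33 times LEFTY2.

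Genes around the LEFTY pair did not pass the fold rule at Day 4 against Day 0. On the log2(FPKM + 1) scale, the differences of SRP9, EPHX1, TMEM63A and SDE2, which lie within 100000 bases, were 0.06, 0.09, 0.46 and 0.23, against 1.78 for LEFTY1 and 1.91 for LEFTY2. Parts of the LEFTY sequences cannot be assigned to 1 gene by a 150-base read. Of 1477 windows of that length in the longest LEFTY1 transcript, 49.7% occur in another annotated gene, mostly in a readthrough transcript that spans the locus, and 151 (10.2%) occur in LEFTY2. The readthrough entry overlapping LEFTY1, RP4-559A3.7, was at most at 1.41 FPKM, and LEFTY2 shared 9.19% of its windows.

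NODAL (hg19, chromosome 10, 72192071 to 72207707), the ligand after which the pathway is named, stayed within 2-fold over all 7 libraries, with its highest value 1.99 times its lowest. Its levels from Day 0 to Day 4 were 68.2, 56.6, 45.0, 60.0 and 65.3 FPKM, and those of the mutant cells were 55.3 FPKM without Dox and 34.3 with Dox. The lowest JMJD3c value was at Day 2, where the ratio to Day 0 was 0.660 (bounds 0.481 to 0.911) and the intervals were apart. At Day 4 the ratio to Day 0 was 0.957 (bounds 0.705 to 1.31), and rescaling the libraries by their upper quartile turned its log2 difference from -0.06 to 0.06. In the mutant line NODAL had a ratio of 0.619 with Dox (bounds 0.453 to 0.837), with intervals apart.

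GDF3 (hg19, chromosome 12, 7842378 to 7848372), a NODAL-related ligand abundant in pluripotent cells, measured 20.6, 18.5, 18.6, 30.3 and 32.1 FPKM over the 5 JMJD3c libraries, in the order of the days. In the mutant line it was at 22.6 FPKM untreated and 11.1 with Dox, the lowest of the 7 values. The Day 4 interval of 22.2 to 38.7 FPKM overlapped that of Day 0, 12.7 to 28.1, and the ratio of 1.56 had bounds of 0.789 to 3.05. The Dox-treated mutant value was 0.492 times the untreated one (bounds 0.253 to 0.967), just past the cutoff of 0.5, with intervals apart by a narrow margin, 6.80 to 15.1 against 15.6 to 26.8 FPKM. LEFTY1 stood just on the other side of the cutoff in the same comparison, with a ratio of 0.511.

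The promoters of CER1, GDF3 and NODAL are shown because these genes differ in their pattern over the libraries and because FOXH1 and SMAD proteins act through short DNA motifs. Each is the 250 bases before the annotated start, on the minus strand, from RefSeq on GRCh38.p14, and 6 of the 10 members have a promoter in the table used. The capitals mark matches to the FOXH1 motif AATNCACA and to the SMAD motif CAGAC, searched on both strands.
CER1 (chr9:14722734-14722983): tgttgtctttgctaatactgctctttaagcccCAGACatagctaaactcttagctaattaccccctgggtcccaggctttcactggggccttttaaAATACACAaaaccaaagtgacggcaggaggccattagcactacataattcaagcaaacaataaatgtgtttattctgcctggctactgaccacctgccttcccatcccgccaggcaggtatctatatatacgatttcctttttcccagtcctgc
GDF3 (chr12:7695776-7696025): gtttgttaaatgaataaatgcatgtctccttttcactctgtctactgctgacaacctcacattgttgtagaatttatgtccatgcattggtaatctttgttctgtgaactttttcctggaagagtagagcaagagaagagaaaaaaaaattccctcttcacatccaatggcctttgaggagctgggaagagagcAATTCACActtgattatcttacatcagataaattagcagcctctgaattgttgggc
NODAL (chr10:70441682-70441931): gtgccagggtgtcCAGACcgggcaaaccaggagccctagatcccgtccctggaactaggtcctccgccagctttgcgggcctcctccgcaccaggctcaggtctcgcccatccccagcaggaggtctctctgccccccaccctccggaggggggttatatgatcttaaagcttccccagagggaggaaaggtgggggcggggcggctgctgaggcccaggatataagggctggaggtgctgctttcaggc

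The FOXH1 motif occurred once in the CER1 promoter, 154 to 147 bases before the start, and once in the GDF3 promoter, 56 to 49 bases before it. It was found in 2.89% of 35116 promoters of the same length in the table. CAGAC occurred once in the CER1 promoter and once in the NODAL promoter, 218 and 237 bases before the start at its first base, and it was found in 38.0% of all promoters. It also occurred, on the other strand, in 2 of the 5 SMAD3 promoters in the table, with 1 and 3 matches. The letters AATNCACA were not in the windows of NODAL, ACVR2B, SMAD2 or SMAD3. These matches describe the sequence and do not show that a factor binds there. TDGF1, LEFTY1, LEFTY2 and FOXH1 have no promoter in the table.

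TDGF1 (hg19, chromosome 3, 46616045 to 46623953), the co-receptor through which NODAL and GDF3 engage the receptor complex and also a common marker of undifferentiated hESCs, was the most abundant member in each library. JMJD3c-hESCs had 224 FPKM before Dox and 186, 146, 129 and 146 FPKM on the following 4 days, and JMJD3c mut-hESCs had 206 FPKM without and 151 with Dox. The 2 untreated libraries were the highest and their intervals overlapped. Its ratio was 0.652 at Day 4 against Day 0 (bounds 0.547 to 0.778) and 0.733 with Dox in the mutant line (bounds 0.630 to 0.848), each with intervals apart but short of the fold rule. The Dox-treated cells of the 2 lines had a ratio of 0.971 (bounds 0.818 to 1.15). TDGF1 shared 181 of its 1807 windows of 150 bases with other genes, mostly with the related entry TDGF1P3.

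ACVR2B (hg19, chromosome 3, 38495342 to 38534633), a type II activin receptor, varied least of the 10 genes on the log2(FPKM + 1) scale, with its highest value 1.42 times its lowest. Its level was 16.1 FPKM before Dox, 15.9, 16.6 and 16.0 FPKM on Days 1 to 3 and 13.1 FPKM on Day 4, beside 15.1 FPKM in untreated and 11.7 FPKM in treated mutant cells. The lowest JMJD3c value was at Day 4, where the interval of 11.7 to 14.5 FPKM overlapped narrowly with that of Day 0, 14.4 to 17.9. With Dox in the mutant line the ratio was 0.774 (bounds 0.643 to 0.928), with intervals apart.

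SMAD2 and SMAD3 carry the signal from the receptor to the nucleus. SMAD2 was at 45.3, 39.4, 49.2, 38.6 and 34.2 FPKM on Days 0 to 4, and at 42.4 and 28.7 FPKM in mutant cells without and with Dox. Of the 21 pairs of libraries, 1 had SMAD2 intervals that were apart. SMAD3 had its highest value at Day 0, 15.3 FPKM, its lowest JMJD3c value at Day 3, 10.7 FPKM, and 12.2 FPKM at Day 4, and was at 6.99 and 10.7 FPKM in the mutant line. No pair of libraries had SMAD3 intervals apart, and its Day 4 ratio to Day 0 of 0.799 had bounds of 0.307 to 2.66. A 2-fold change of SMAD3 in either direction at Day 4 lies within these bounds and could be neither shown nor excluded.

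FOXH1, the forkhead DNA-binding partner of SMAD2 and SMAD3 at NODAL-responsive genes, had its highest level before Dox, 50.7 FPKM, and then 43.6, 34.4, 34.2 and 29.3 FPKM on Days 1 to 4. The mutant cells had 31.7 FPKM without Dox and 28.6 with Dox. The Day 4 interval was apart from that of Day 0, with a ratio of 0.579 (bounds 0.426 to 0.783). The untreated mutant line was below Day 0 by a like amount, with a ratio of 0.626 (bounds 0.475 to 0.823), and the Day 4 ratio to that line was 0.924 (bounds 0.693 to 1.23). Whether FOXH1 stood lower at Day 4 thus depended on the untreated library used. The gene overlaps KIFC2 by 791 bases, and KIFC2 was at 1.69 to 3.88 FPKM.

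The days of JMJD3c induction share the Day 0 library as their reference. On Days 2, 3 and 4 the members called higher were LEFTY1, LEFTY2 and CER1, and no member was called lower. Over all genes tested, 3.90% were called higher and 4.24% lower at Day 2, and 4.73% and 4.48% at Day 3. The median log2(FPKM + 1) difference of the 10 members was -0.17 at Day 4, where that of all genes tested was -0.06. Its sign depended on the reference: for Day 4 against the untreated and the Dox-treated mutant line the median was 0.36 and 0.58, with -0.02 over all genes tested in both. At Day 4, 5 members had intervals apart from those of Day 0 (TDGF1, FOXH1 and the 3 inhibitors), beside 12.1% of all genes tested. The CER1 interval at Day 0 is 0 to 0 and adds no uncertainty to its comparison.

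The comparison of Day 4 with the untreated mutant line used another untreated library in place of Day 0. The 3 inhibitors were again called higher and no member was called lower, beside 7.04% and 3.90% of all genes tested. Intervals were apart for 4 members, the inhibitors and TDGF1, and for 18.6% of all genes tested. The 2 untreated libraries themselves differed by the fold rule in 1 member, SMAD3, lower in the mutant line at a ratio of 0.458 with overlapping intervals (bounds 0.246 to 1.68). Between these libraries 2.78% of all genes tested were called higher in the mutant line and 7.00% lower, and 13.7% had intervals apart. Intervals were also apart for FOXH1 and for CER1, the latter below 4 FPKM in both.

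Dox in the mutant line combined the treatment with a catalytically inactive protein. The day of the untreated mutant library is not given, and the JMJD3c line has no untreated library at Day 4. In both lines, Dox and days in culture therefore cannot be told apart. Of the 10 members, 8 had a lower value with Dox, where 4783 of 9735 genes tested had a lower value. Intervals were apart for NODAL, GDF3, TDGF1, LEFTY1 and ACVR2B, which is 5 members beside 3.14% of all genes tested. A lower value was not particular to the members: all 8 hESC markers had a lower value with Dox, 5 of them with intervals apart. The median log2(FPKM + 1) difference of these markers was smaller, -0.16. Of the 45 other pathway genes, 16 had a lower and 26 a higher value. The median log2(FPKM + 1) difference of the members was -0.44, and that of all genes tested was 0.00. The 2 members with a higher value were LEFTY2 and SMAD3, both with overlapping intervals.

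With both lines under Dox for 4 days, the libraries differed in whether the construct was active and also in the cell line, and these cannot be told apart. Between the untreated libraries of the 2 lines, 13.7% of all genes tested had intervals apart. In JMJD3c cells 4 members were called higher (GDF3, LEFTY1, LEFTY2 and CER1) and none lower, beside 6.56% and 3.00% of all genes tested. The ratios were 2.88 for GDF3 (bounds 1.47 to 5.70), 6.62 for LEFTY1 (bounds 4.06 to 10.9), 5.81 for LEFTY2 (bounds 3.35 to 11.5) and 145 for CER1. NODAL had a ratio of 1.90 (bounds 1.40 to 2.62) and was the fifth gene with intervals apart, where 16.3% of all genes tested had intervals apart. Against the untreated libraries of the 2 lines, NODAL and GDF3 at Day 4 had overlapping intervals. NODAL at Day 4 was 0.957 times Day 0, while with Dox in the mutant line it was 0.619 times the untreated value, with intervals apart. Its difference between the treated lines thus went with the lower mutant value. For GDF3 the same ratios were 1.56, with overlapping intervals, and 0.492, with intervals apart. KDM6B was higher in the Dox-treated mutant line than at Day 4, at a Day 4 ratio of 0.621, and the part of that level in these differences was not tested.

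**Figure D2:**
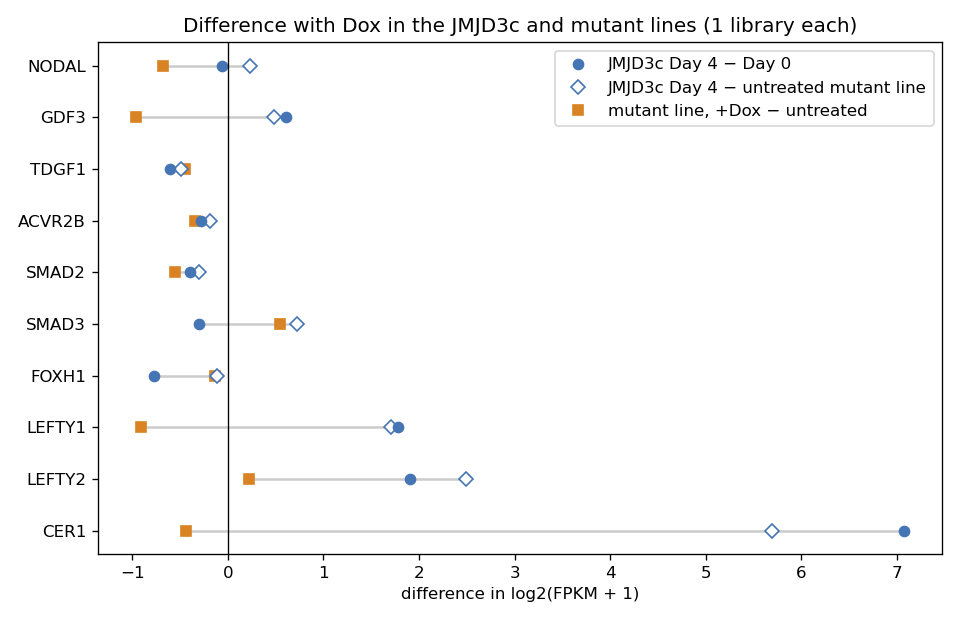
Difference in log2(FPKM + 1) of each member (horizontal axis) at JMJD3c Day 4 against Day 0 (filled circles), at JMJD3c Day 4 against the untreated mutant line (open diamonds), and with Dox in the mutant line (squares), 1 library per condition. For LEFTY1 the circle is at 1.78 and the square at -0.91, while for TDGF1 they are close together at -0.61 and -0.45.

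Within a library, the balance of inhibitor to ligand transcripts can be read without comparing libraries. This ratio was chosen after the values had been seen. The summed FPKM of LEFTY1, LEFTY2 and CER1 was 0.283 times that of NODAL and GDF3 before Dox, and then 0.716, 1.44, 1.78 and 2.33 times on Days 1 to 4. In the mutant line the ratio was 0.328 untreated and 0.341 with Dox, close to Day 0. Ligand sums lay between 63.5 and 97.3 FPKM in the JMJD3c libraries, while inhibitor sums went from 25.1 FPKM at Day 0 to 227 at Day 4. The share of CER1 in the inhibitor sum was 0% before Dox, 3.45% after 1 day and 59.0% after 4 days. For the LEFTY genes alone, the sum relative to NODAL was 0.368 and 0.916 on Days 0 and 1 and between 1.27 and 1.43 on Days 2 to 4, against 0.433 and 0.424 in the mutant line. In the Dox-treated mutant line, the LEFTY sum and NODAL were thus both lower, with nearly the same ratio, although LEFTY2 itself was not lower (3.27 and 3.96 FPKM).

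**Figure D3:**
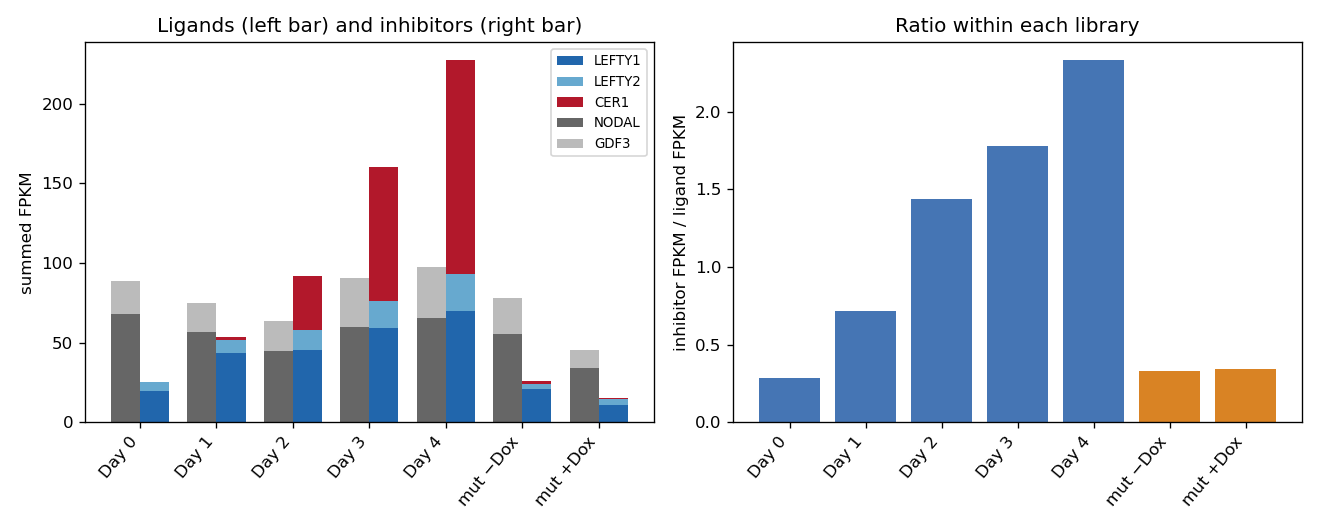
Left, summed FPKM in each library of the ligands (NODAL and GDF3, left bar) and of the inhibitors (LEFTY1, LEFTY2 and CER1, right bar). Right, inhibitor sum divided by ligand sum, which goes from 0.283 at Day 0 to 2.33 at Day 4 and is 0.328 and 0.341 in the 2 mutant libraries.

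Among other genes of the NODAL and activin pathway, a few passed the fold rule. Of 45 further ligands, receptors, transducers, processing enzymes and inhibitors, 29 were above 4 FPKM in either library at Day 4 against Day 0, of which 3 were called higher and 0 lower, beside the 5.87% and 7.56% of all genes tested, and their median log2(FPKM + 1) difference over all 45 was 0.06. TGFB1, the ligand TGFβ1, which signals through other receptors to the same SMADs, had 4.16 FPKM before Dox and 25.1 FPKM on Day 4, with 3.61 and 4.01 FPKM in the mutant line. FST, which encodes the activin antagonist follistatin, had 1.94 and 12.6 FPKM on the same days, with 3.10 and 4.98 FPKM in the mutant line. PCSK5, a proprotein convertase gene, was at 3.54 and 7.14 FPKM with overlapping intervals. It had 4.86 and 7.23 FPKM in mutant cells without and with Dox, and was not called at Day 4 against the untreated mutant line. Of the 16 other inhibitors among these genes, 7 had a higher and 9 a lower value at Day 4 than at Day 0. Their median log2(FPKM + 1) difference was -0.19, and FST was the 1 called higher. SKIL went from 43.7 to 26.5 FPKM and TGIF2 from 46.7 to 27.2 FPKM, each with intervals apart. In mutant cells without and with Dox, SKIL had 60.0 and 47.4 FPKM and TGIF2 37.3 and 29.1 FPKM.

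No other pathway gene was called higher with Dox in the mutant line. WWTR1 (TAZ), a transcriptional partner of SMAD proteins, was called lower there, from 8.59 to 4.20 FPKM with overlapping intervals. SMAD4, the common partner of SMAD2 and SMAD3, had 27.9 FPKM before Dox and 23.2 FPKM on Day 4, and ACVR1B, a type I receptor for NODAL, had 11.7 and 12.7 FPKM. CFC1 and CFC1B, which encode the co-receptor related to TDGF1, were listed at 0 in all 7 libraries.

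Genes known as NODAL or activin targets, a list of 17 without the 3 inhibitors, were higher at Day 4 in most cases. Of the 17, 15 were above 4 FPKM in either library. By the fold rule 11 were called higher and 1 lower than at Day 0, beside 5.87% and 7.56% of all genes tested. The median log2(FPKM + 1) difference over the 17 was 2.95. EOMES, a T-box factor of the primitive streak and endoderm, was listed at 0 at Day 0 and was at 1.39, 10.9, 22.0 and 38.2 FPKM on Days 1 to 4, with 0.257 and 0.196 FPKM in the mutant line. MIXL1, a homeobox gene of the streak, had 4.43 FPKM before Dox and 41.0 FPKM on Day 4, and 6.35 and 3.29 FPKM in the mutant line. FOXA2, an endoderm factor, had 0.255, 5.12 and 27.2 FPKM on Days 0, 1 and 4, and SOX17, another, was listed at 0 on Days 0 and 1 and had reached 20.3 FPKM by Day 4.

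Other targets called higher included the following. LHX1 was listed at 0 at Day 0 and was at 15.9 FPKM at Day 4, and GATA6 went from 0 to 14.8 and CXCR4 from 0 to 14.1 FPKM between the same days. T (brachyury) was at 0.804 and 23.6 FPKM and GSC (goosecoid) at 0 and 10.5 FPKM. FGF8 was the target called lower, from 13.8 to 5.84 FPKM with overlapping intervals. It had 8.98 and 6.31 FPKM in mutant cells without and with Dox, and was not called at Day 4 against the untreated mutant line. NANOG, which SMAD2 and SMAD3 are known to support in hESCs, was at 108 and 92.9 FPKM on Days 0 and 4 and was not called.

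In the mutant line, 6 of the 17 target genes were above 4 FPKM in either library. None was called higher with Dox and 2 were called lower, OTX2 among them, beside 1.24% and 1.53% of all genes tested. OTX2, a homeobox gene of the epiblast and anterior neural plate, was at 15.2 FPKM untreated and 7.50 with Dox. That ratio of 0.492 was just past the cutoff of 0.5, with overlapping intervals. In the JMJD3c line OTX2 had 18.9 FPKM before Dox and 47.7 FPKM on Day 4. It thus differed in the direction of LEFTY1, lower with Dox in the mutant line and higher at Day 4.

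**Figure D4:**
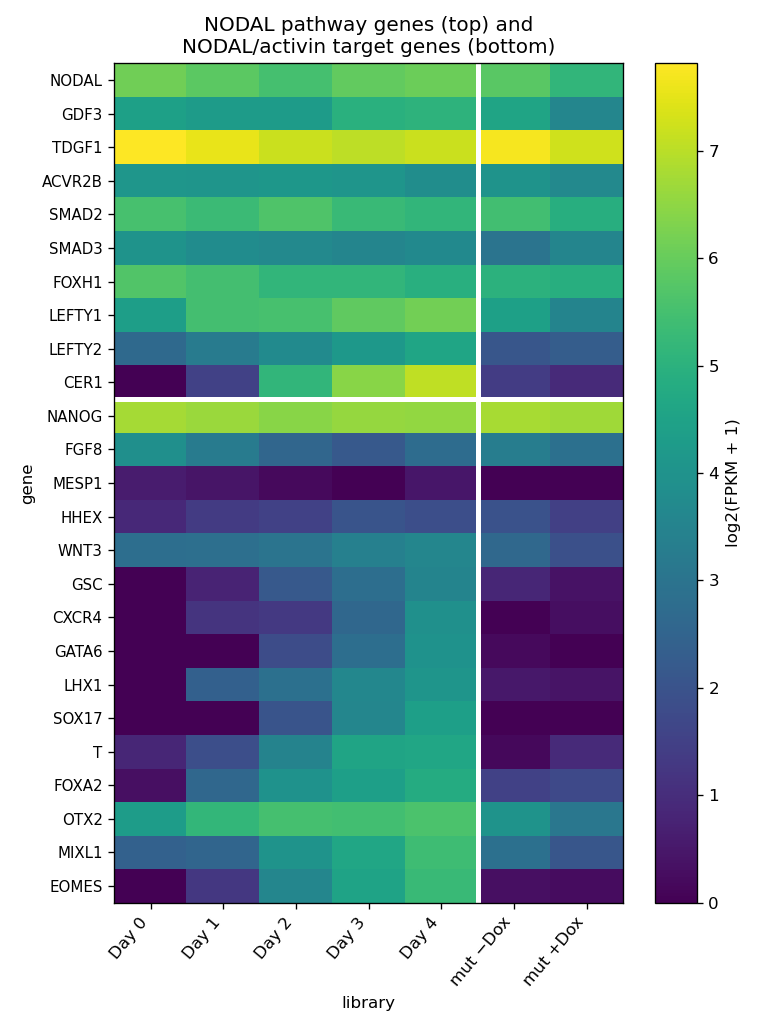
Colour gives log2(FPKM + 1) in each library for the 10 members (upper block) and 15 of the 17 NODAL and activin target genes (lower block), with the JMJD3c days left and the mutant line right of the white line. Target genes are ordered by their FPKM difference between Days 4 and 0, and EOMES in the last row goes from 0 to 38.2 FPKM.

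Definitive endoderm markers were the lineage list with most members called higher at Day 4, where 5.87% of all genes tested were called higher and 7.56% lower. Summed over 6 definitive endoderm markers, the level was 1.11, 8.81, 26.8, 51.7 and 90.2 FPKM from Day 0 to Day 4, against 5.45 and 4.53 FPKM in the mutant line, and 5 of the 6 were called higher at Day 4. The list shares SOX17, FOXA2, GATA6, CXCR4 and HHEX with the target genes. Of 6 mesoderm markers 1, T, was called higher, and HAND1, MEOX1 and FOXF1 were listed at 0 in all libraries. Summed neuroectoderm markers were 2.22, 13.5, 9.09, 3.07 and 7.05 FPKM from Day 0 to Day 4, highest at Day 1, and 1.30 and 2.40 FPKM in the mutant line. Of these 6 markers 1, PAX6, was called higher on Days 1, 2 and 4, each time with an interval overlapping that of Day 0, 0 to 11.5 FPKM. Its values were 2.22, 9.62, 6.43, 2.72 and 5.91 FPKM in the order of the days. Trophoblast and amnion markers summed to between 2.99 and 6.79 FPKM over the 7 libraries, and none of the 6 was called at Day 4. Of 8 hESC markers 2, SOX2 and DNMT3B, were called lower at Day 4, at 65.9 and 191 FPKM after 136 and 404 FPKM before Dox. Neither was called at Day 4 against the untreated mutant line. In mutant cells without and with Dox, SOX2 had 99.6 and 74.6 FPKM and DNMT3B 369 and 308 FPKM. The part of a changing mixture of cell types in the inhibitor levels was not tested.

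For the 5 members whose log2(FPKM + 1) spanned at least 1 over the 7 libraries with a level above 4 FPKM, the most similar profiles were sought among 3222 genes by Pearson's r over 7 points, as a description. These points share 5 consecutive days of 1 line and the depth of each library. The 3 genes nearest to CER1 were SLFN12 (r = 0.994), GSC (r = 0.992) and SLC22A3 (r = 0.992). For LEFTY1 they were OTX2 (r = 0.977), DUSP23 (r = 0.973) and FAM213A (r = 0.972). LEFTY2 was nearest to DUSP4 (r = 0.988), OCIAD2 (r = 0.987) and GAL (r = 0.985), and its r with LEFTY1 was 0.920. Among the nearest to GDF3 were FBP1 (r = 0.976) and WNT3 (r = 0.928), genes with low values in the Dox-treated mutant line. SMAD3 was nearest to WDR37 (r = 0.983), LMBR1L (r = 0.970) and ZSCAN9 (r = 0.961), but its own values were not separable between libraries.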

How the data were processed

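RNA-seq libraries (poly(A), strand-specific, single-end 150-base MiSeq reads) were analysed for 7 samples, 1 per condition. Reads were aligned by the authors to the hg19 build with TopHat2 2.0.13, and they deposited FPKM per gene from Cufflinks 2.1.1 with 95% interval bounds and a status flag. FPKM divides by transcript length and library total, so a large change in a few genes shifts the others slightly. Depth at Day 0 was estimated from whole-read steps among low FPKM values of single-exon genes, 21 low values among 243 genes, and is therefore approximate. The other depths scale that estimate by the commonest ratio of low values to Day 0. A floor of 3 reads covers counting error only.

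Ratios, differences of log2(FPKM + 1), which understate changes of low genes, and calls were computed over all genes with Python 3.11.15, numpy 2.4.6 and pandas 2.3.3, with figures from matplotlib 3.10.9. The calls were tested on simulated data with known changes, which checks the code and not how these libraries vary. PAICS, flagged as a failed estimate in 1 library (mutant, no Dox), was left out of comparisons with that library. Ratio bounds divide the lower bound of one interval by the upper bound of the other. Shared windows came from GENCODE transcripts on GRCh37 and promoters from RefSeq. Named genes are the members, KDM6B, the largest pathway genes past the fold rule (at most 12), and the 3 genes most like each variable member. Other genes named as examples of a list or as neighbours were chosen after their values were seen. The members and lists were chosen with earlier results of these data known. Alternatives changed the FPKM cutoff, pseudocount, scaling, and use of intervals. A few genes of the lists and neighbours are not reported here by name, although the list counts include them.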

Additional observations from a re-analysis of the deposited data

Results flagged for a closer look

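For 4 of the 10 members the value moved in opposite directions with Dox in the 2 lines, 1 library per condition, and the difference between the lines was not tested. The log2(FPKM + 1) differences were 0.61 for GDF3 at JMJD3c Day 4 against Day 0 and -0.96 with Dox in the mutant line. The first of these had overlapping intervals. For LEFTY1 the differences were 1.78 and -0.91. For CER1 they were 7.07 and -0.44, the second between 2 values under 4 FPKM with overlapping intervals. For SMAD3 they were -0.30 and 0.55, with overlapping intervals in both lines.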

How the results depend on the processing

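No paired analysis was possible because each condition has 1 library, and for the same reason no library could be left out. Of 97 alternatives for the counts of members called and the medians, 92 stayed within 1.5 times the count or, for medians, within the members' typical Cufflinks range, and 5 moved. With a cutoff of 1 FPKM, or with no filter on low values, 2 members were called at Day 1 against Day 0, LEFTY1 and CER1, and 2 in the untreated mutant line against Day 0, CER1 and SMAD3. When intervals also had to be apart, 0 members were called between the untreated lines. Of 120 alternatives for single members, 3 moved, all for CER1: its log2 difference was 10.39 with a pseudocount of 0.1 and 5.11 with a pseudocount of 4 at Day 4 against Day 0, and 4.62 with a pseudocount of 4 against the untreated mutant line.

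Rescaling by the upper quartile shifted the median of all genes by up to 0.14 (0.13 at Day 4 against Day 0) and turned the members' median to 0.08 at Day 2 and 0.01 at Day 3. Rescaling by the median ratio shifted it by at most 0.06. The Day 0 depth of 3530000 reads limits low genes, CER1 above all.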
